A study of Homo sapiens with 16 samples.

Results

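Bisphenol A (BPA) was compared with its vehicle, DMSO, in T-47D cells, a human breast cancer line that carries estrogen receptor alpha. The libraries were taken by their labels: 2 of BPA-treated and 2 of DMSO-treated T-47D cells, 4 of the 16 libraries of the series. Of 21453 gene symbols in the files, 13827 had at least 1 RPKM (reads per kilobase of transcript, normalised to library depth) in at least 2 libraries and were tested in both directions. Polyadenylated RNA was sequenced after 8 h with 100 nM BPA or with 0.02% DMSO, and the other T-47D groups received 100 nM genistein or 10 nM 17β-estradiol for the same time. ECC-1 cells, an endometrial cancer line, received the same 4 treatments, which gives 8 groups of 2 libraries. Before treatment, dishes of 100 mm had 5 days of RPMI-1640 that lacked phenol red and held 10% fetal bovine serum stripped with dextran and charcoal, so every group started from medium low in hormones. The results are of 1 cancer line, and the labels do not say whether the 2 libraries of a group came from separate cultures. The p-values therefore measure the spread between these libraries, which may be technical.

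BPA is a monomer of polycarbonate plastics and epoxy resins and a weak ligand of the estrogen receptors. A receptor that has bound a ligand attaches to estrogen response elements in DNA, or to other factors there, and recruits cofactors that change transcription of nearby genes, among them GREB1, PGR, MYC, CXCL12 and STC2 in breast cancer cells. BPA has also been studied as a ligand of estrogen-related receptor gamma, the pregnane X receptor and the membrane receptor GPER, and cells inactivate it by glucuronidation and sulfation.

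The 4 libraries held an estimated 21 and 17.4 M reads with BPA and 25.7 and 18.08 M reads with DMSO, so a transcript of 2 kb at 1 RPKM rested on 34.8 to 51.4 reads. Luminal breast markers, 12 genes such as GATA3, FOXA1 and KRT8, summed to 6100 to 7628 RPKM with BPA and 6449 to 6560 RPKM with DMSO, so the defining markers of a luminal breast line were present. Leukocyte markers summed to 5.71 to 5.93 RPKM with BPA and 5.43 to 5.96 RPKM with DMSO. Levels below are RPKM divided by a scale factor per library (0.938 to 1.05 over the series), and changes are log2 differences of RPKM + 0.5, which understate the ratio of low genes.

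BPA library 2 stood apart from the other T-47D libraries. It carried transcripts typical of fat, vessel and basal epithelial cells. FABP4, the fatty acid carrier of adipocytes, had 0.06 and 1.97 RPKM with BPA and 0.05 and 0.21 RPKM with DMSO. PLIN1, a coat protein of lipid droplets, had 0.28 and 3.12 RPKM with BPA and 0.35 and 0.45 RPKM with DMSO. LIPE, the hormone-sensitive lipase, had 0.31 and 3.35 RPKM with BPA and 0.26 and 0.32 RPKM with DMSO. In each of these genes the second value of the BPA pair was the high one, and BPA library 1 lay near the DMSO libraries. The matrix protein gene SPARC reached 1.92 RPKM in BPA library 2 and at most 0.16 RPKM in the other 7 T-47D libraries, VWF of endothelial cells 0.70 against at most 0.14 RPKM, and the basal keratin KRT5 0.84 against at most 0.29 RPKM. Over a list of 15 adipocyte markers chosen after these values were seen, the summed level was 11.05 to 34.5 RPKM with BPA and 10.3 to 11.3 RPKM with DMSO, where 2 members (CIDEA and G0S2) were at 0 in both DMSO libraries. The 5 endothelium markers summed to 0.17 to 1.33 RPKM with BPA and 0.15 to 0.17 RPKM with DMSO, and the 4 basal markers to 2.14 to 6.27 RPKM with BPA and 2.42 to 2.58 RPKM with DMSO. The 7 fibroblast markers summed to 19.7 to 23.9 RPKM with BPA and 19.9 to 20.7 RPKM with DMSO. Counting genes with at least 0.5 RPKM in 1 library and over 2 times every other T-47D library (0.1 RPKM added to both), BPA library 2 had 30, BPA library 1 had 4, the genistein libraries 4 and 6, the estradiol libraries 34 and 16 and the DMSO libraries 1 and 8. The part of this RNA in the results below was not tested, and the values with BPA library 2 left out stand beside the changes that it carried most.

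**Figure D1:**
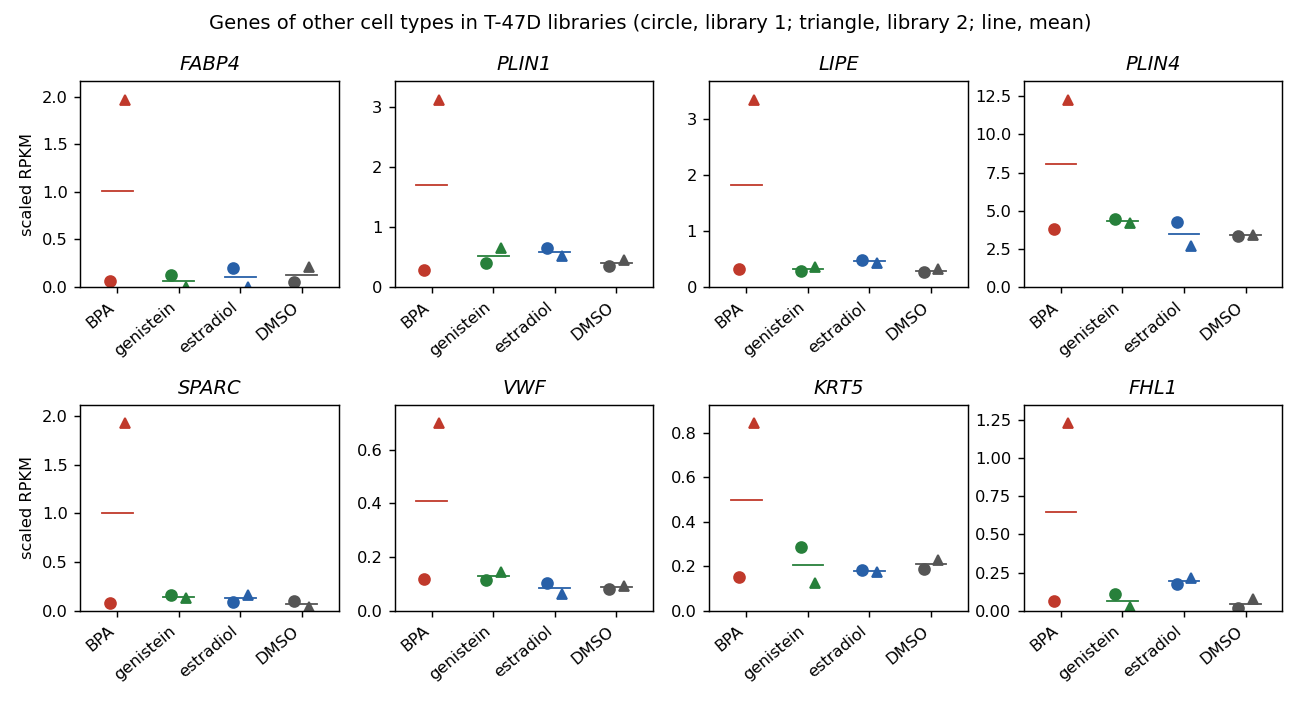
Level (scaled RPKM, linear axis from 0) of 8 genes in the 8 T-47D libraries, in the order BPA, genistein, estradiol and DMSO, with circles for library 1, triangles for library 2 and a line at the mean of the pair. The triangle of BPA stands alone in every panel (PLIN4 at 12.3 RPKM, against 2.71 to 4.44 RPKM in the other 7 libraries).

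No gene passed the threshold for BPA against DMSO in T-47D cells: limma called 0 of 13827 genes (0% called) at a Benjamini-Hochberg adjusted p under 0.05, and 116 genes (0.839%) had an unadjusted p under 0.05, 80 of them higher (0.579%) and 36 lower (0.26%) with BPA. An unadjusted p under 0.05 would be met by 5% of genes if no gene changed and the spread were the same in every group. The standard deviation of the log2 difference between the 2 libraries of a group was 0.21 with BPA, 0.24 with genistein, 0.41 with estradiol and 0.21 with DMSO, and the fit pools these spreads. The interval of the change, set per gene without adjustment, shows which sizes of change the spread pooled over all 16 libraries leaves room for. In 13710 genes (99.2%) the 95% interval lay inside 2-fold either way, with a median reach of 0.33 log2 units to each side. The changes themselves had a median of 0.00, and 95% of genes lay between -0.22 and 0.26. Both BPA libraries lay above both DMSO libraries in 1445 genes (10.5%) and below both in 1408 genes (10.2%). A change over 1 log2 unit was seen in 8 genes (0.0579%), CXCL12, CTRB1, CTRB2, RPPH1 and the small RNA genes MIR612, SNORA6, SNORA64 and SNORA70. All but CXCL12 are short RNA genes or, in the chymotrypsinogens CTRB1 and CTRB2, near-identical copies, whose reads may be split between them.

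**Figure D2:**
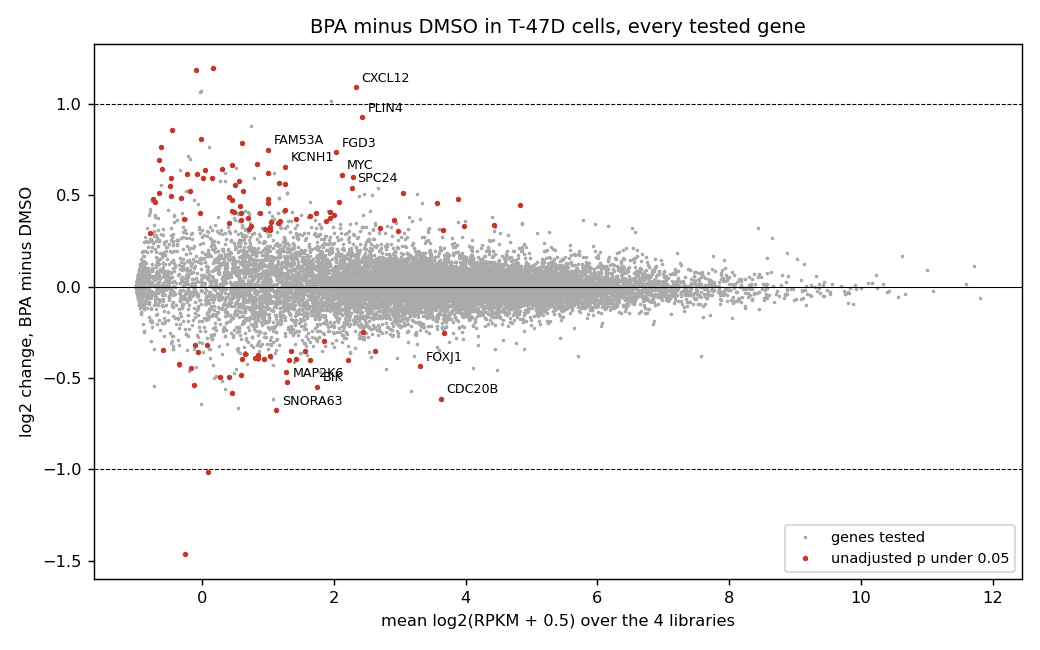
Log2 change, BPA minus DMSO in T-47D cells, of all 13827 tested genes against their mean log2(RPKM + 0.5) over the 4 libraries, with the 116 genes of unadjusted p under 0.05 in red and dashed lines at 2-fold. The cloud narrows with level, and CXCL12 is the one labelled gene outside the dashed lines.

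CXCL12, a chemokine that draws leukocytes and a textbook estrogen target in breast cancer cells, stood first by unadjusted p. Its level was 5.13 and 9.20 RPKM with BPA and 3.85 and 2.26 RPKM with DMSO, from 192 and 283 reads with BPA and 180 and 72 reads with DMSO. Both BPA libraries lay above both DMSO libraries, and the change was 1.09 (SE 0.22, limma adjusted p = 1). It was 0.70 without BPA library 2 and 1.48 without BPA library 1, and 1.42 or 0.77 without DMSO library 1 or 2. CXCL12 had 37.4 and 40.8 RPKM with genistein and 51.6 and 49.3 RPKM with estradiol. MYC, the growth-promoting transcription factor, had 3.86 and 6.11 RPKM with BPA and 3.07 and 2.95 RPKM with DMSO, a change of 0.61 (SE 0.16). The MYC change was 0.31 without BPA library 2 and 0.91 without BPA library 1. Neither gene passed the threshold with all libraries in the fit.

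By rule, the 12 largest positive differences were taken from the 46 genes that averaged at least 1 RPKM with an unadjusted p under 0.05 and with both BPA libraries above both DMSO libraries. Besides CXCL12 and MYC they included KCNH1, a voltage-gated potassium channel, with 1.85 and 3.38 RPKM with BPA and 1.39 and 1.44 RPKM with DMSO, a change of 0.66. FGD3, an exchange factor for the GTPase Cdc42, had 3.51 and 6.45 RPKM with BPA and 2.94 and 2.41 RPKM with DMSO, a change of 0.74. In both genes BPA library 2 was the higher one, and without it the change was 0.30 for KCNH1 and 0.34 for FGD3. FAM53A had 2.15 and 2.06 RPKM with BPA and 1.18 and 0.93 RPKM with DMSO, a change of 0.75 (SE 0.21) that was 0.78 without BPA library 2 and 0.72 without BPA library 1. The level of FAM53A was thus alike in both BPA libraries. SPC24, a kinetochore protein of the NDC80 complex, had 6.11 and 4.67 RPKM with BPA and 3.53 and 3.49 RPKM with DMSO, a change of 0.54. PALM3, a paralemmin, had 2.17 and 2.67 RPKM with BPA and 1.39 and 1.55 RPKM with DMSO, and NXNL2, of the thioredoxin family, 1.67 and 2.35 RPKM with BPA and 0.74 and 1.60 RPKM with DMSO. The changes of PALM3 and NXNL2 were 0.56 and 0.62, and that of NXNL2 was 0.25 without DMSO library 1 and 1.00 without DMSO library 2. LOC440957 differed by 0.67, and by 1.00 without DMSO library 1 and 0.34 without DMSO library 2. FLJ39609 differed by 0.78, and by 0.28 without BPA library 2 and 1.29 without BPA library 1. The linker histone HIST1H1E, whose main transcript has no poly(A) tail, rested on 22 and 15 reads with BPA and 12 and 11 reads with DMSO. PLIN4, which coats lipid droplets in adipocytes, had the largest change of the 12 after CXCL12. Its level was 3.80 and 12.3 RPKM with BPA and 3.38 and 3.41 RPKM with DMSO. Its change was 0.93 with both BPA libraries, 0.14 without library 2 and 1.71 without library 1. PLIN4 is itself a member of the list of 15 adipocyte markers given above, which was chosen after the values were seen.

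When BPA library 1 was left out, limma called 3 genes, all higher: FHL1, PLIN4 and CXCL12, with changes of 1.66, 1.71 and 1.48 and adjusted p of 0.00189, 0.0315 and 0.0315. This test takes the remaining BPA library 2 to vary like the other groups. FHL1, a LIM protein of muscle and connective tissue, had 0.06 and 1.23 RPKM with BPA and 0.02 and 0.07 RPKM with DMSO, from 3 and 48 reads with BPA and 1 and 3 reads with DMSO. Without BPA library 2 its change was 0.05. With all estradiol libraries left out as well, a setting added after the data were seen, 12 genes were called, all higher. Besides these 3 and MYC, FGD3 and FLJ39609, they were COL6A2, a collagen of connective tissue, G0S2, an inhibitor of fat breakdown, the basal keratins KRT5 and KRT17, the cytoskeletal linker MSN and VWF. COL6A2 had 0.19 and 0.99 RPKM with BPA and 0.24 and 0.17 RPKM with DMSO, and MSN 0.04 and 0.43 RPKM with BPA and 0 and 0.01 RPKM with DMSO. Leaving out BPA library 2, or either DMSO library, gave 0 calls in limma, with 101, 118 and 149 genes at an unadjusted p under 0.05.

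The 12 largest negative differences came from 23 genes that met the same rule in the other direction. CDC20B, a gene of multiciliated cells, had 12.8 and 6.94 RPKM with BPA and 16.1 and 13.6 RPKM with DMSO, a change of -0.61 (SE 0.28) that was -0.19 without BPA library 2. FOXJ1, the master regulator of motile cilia, had 9.91 and 6.48 RPKM with BPA and 11.9 and 10.2 RPKM with DMSO, a change of -0.44 (SE 0.18). TEKT1, a tektin of cilia and flagella, had 1.29 and 1.07 RPKM with BPA and 1.93 and 1.52 RPKM with DMSO, a change of -0.40 (SE 0.14). These 3 cilium genes were noticed after their values were seen, and in each the second library was the lower one of its pair. BIK, a BH3-only killer protein repressed by estrogen in breast cancer cells, had 2.70 and 1.90 RPKM with BPA and 3.35 and 3.77 RPKM with DMSO, a change of -0.55 (SE 0.23). MAP2K6, a kinase upstream of p38, had 1.83 and 1.30 RPKM with BPA and 2.52 and 2.37 RPKM with DMSO, a change of -0.52 (SE 0.19). SMAD6, an inhibitor of BMP signalling, NR5A2, an orphan nuclear receptor, and CHST1, a keratan sulfate sulfotransferase, each differed by -0.40. CHST1 had 3.89 and 3.21 RPKM with BPA and 4.17 and 5.60 RPKM with DMSO. GABARAPL3, which is near-identical to GABARAPL1, differed by -0.47, LOC728819 by -0.48 and C9orf43 by -0.40. The largest negative value, -0.68 in SNORA63, rested on 3 and 3 reads with BPA and 8 and 5 reads with DMSO. Without DMSO library 2 the change was -0.18 in LOC728819 and -0.21 in CHST1, and without DMSO library 1 it was -0.26 in TEKT1. None of these 12 passed the threshold, and without BPA library 2 their changes ran from -0.15 in FOXJ1 to -0.78 in SNORA63.

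**Figure D3:**
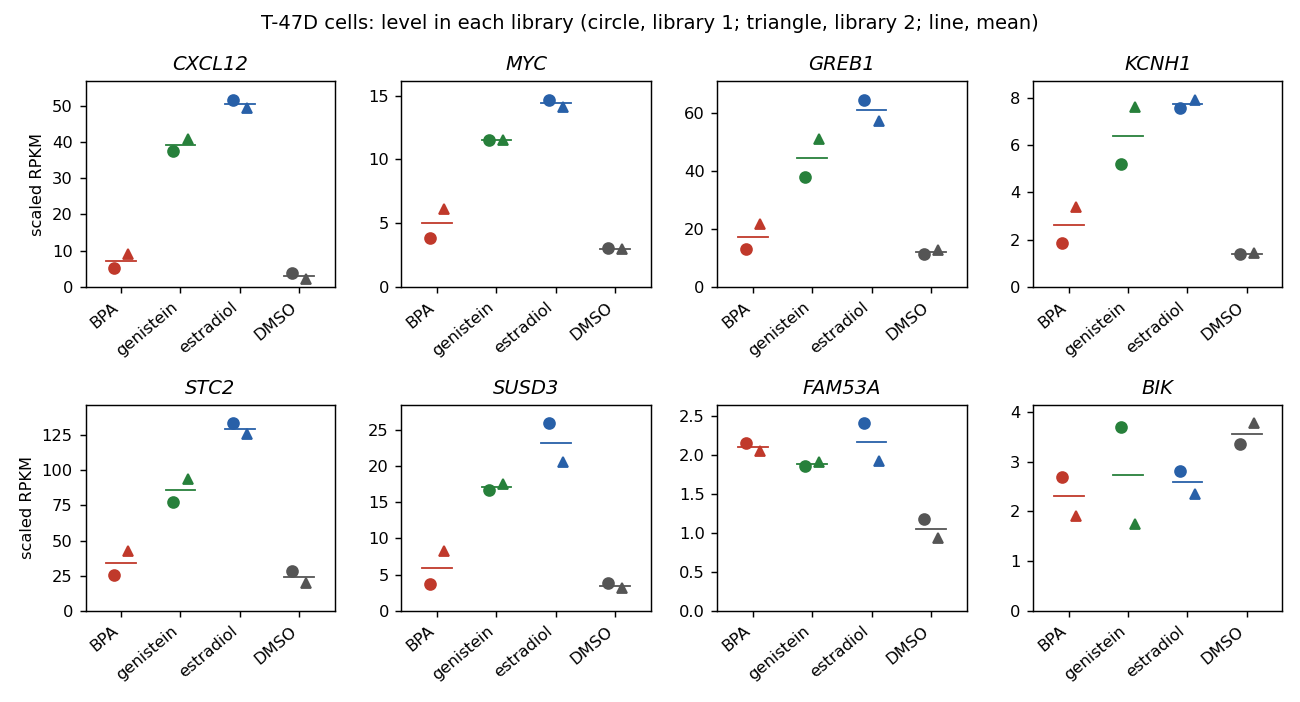
Level (scaled RPKM, linear axis from 0) of CXCL12, MYC, GREB1, KCNH1, STC2, SUSD3, FAM53A and BIK in the 8 T-47D libraries, in the order BPA, genistein, estradiol and DMSO, with circles for library 1, triangles for library 2 and a line at the mean. Both BPA libraries lie below both genistein libraries in the first 6 panels, with BPA library 2 above BPA library 1 (GREB1 at 13.2 and 21.6 RPKM with BPA, 37.8 and 51.1 RPKM with genistein and 11.2 and 12.8 RPKM with DMSO), while FAM53A was at 2.15 and 2.06 RPKM with BPA and 1.18 and 0.93 RPKM with DMSO.

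A list of 54 estrogen-induced genes of breast cancer cells asked whether BPA moved the response that its receptor is known for. Of these, 53 were tested and none passed the threshold. Both BPA libraries lay above both DMSO libraries in 14 of the 53 (26.4%, against 10.5% of all genes) and below in 0 (10.2% of all genes). Changes were above 0 in 42 (52.3% of all genes were). An unadjusted p under 0.05 was met by 7 of the 53, all higher (0.579% of all genes were higher at that p). The median change was 0.13 against 0.00 over all genes. KRT13, SUSD3, KCNK5 and OLFM1 had entered the list from earlier estradiol results on these libraries. Without them, 13 of 49 tested genes had both BPA libraries above (26.5%), 0 had both below, and the median was 0.10. Of these 49, 38 changes were above 0 and 5 had an unadjusted p under 0.05, all higher. The median of the 53 was 0.11 without scaling, 0.14 with upper quartile scaling and 0.13 with quantile normalization. It differed between the BPA libraries, at 0.05 for BPA library 1 minus the DMSO mean and 0.25 for BPA library 2 minus the DMSO mean, and BPA library 2 was above BPA library 1 in 39 of the 53.

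Among the targets themselves, GREB1, an estrogen receptor coregulator, had 13.2 and 21.6 RPKM with BPA and 11.2 and 12.8 RPKM with DMSO, a change of 0.48 (SE 0.21) that was 0.13 without BPA library 2. STC2, a secreted glycoprotein, had 25.4 and 42.3 RPKM with BPA and 28.5 and 20.1 RPKM with DMSO, a change of 0.45 that was 0.09 without BPA library 2 and 0.20 without DMSO library 2, and its groups overlapped. PGR, the progesterone receptor, had 74.9 and 85.2 RPKM with BPA and 58.4 and 68.5 RPKM with DMSO, a change of 0.33 with no overlap. PDZK1, a scaffold protein, had 2.32 and 2.78 RPKM with BPA and 2.15 and 1.59 RPKM with DMSO, a change of 0.37 that was 0.20 without DMSO library 2. KCNK5, a potassium channel, had 0.355 and 0.55 RPKM with BPA and 0.14 and 0.22 RPKM with DMSO, a change of 0.49. These levels are below 1 RPKM, and KCNK5 was tested on its level in other groups. SUSD3 had 3.65 and 8.26 RPKM with BPA and 3.87 and 3.11 RPKM with DMSO. Its change of 0.60, with overlap, was 0.06 without BPA library 2. HSPB8, a small heat shock protein, had 58.7 and 83.6 RPKM with BPA and 54.5 and 55.6 RPKM with DMSO, a change of 0.35 that was 0.09 without BPA library 2. Some other members had smaller changes. SIAH2, a ubiquitin ligase, had 25 and 29.5 RPKM with BPA and 24.6 and 24.4 RPKM with DMSO, a change of 0.15 with no overlap. Cathepsin D (CTSD) had 221 and 286 RPKM with BPA and 242 and 238 RPKM with DMSO. XBP1 had 316 and 359 RPKM with BPA and 364 and 305 RPKM with DMSO. The groups of CTSD and XBP1 overlapped. CCND1, cyclin D1, had 38.9 and 30.4 RPKM with BPA and 35.7 and 29.5 RPKM with DMSO, a change of 0.08. IGFBP4 had 86.3 and 115 RPKM with BPA and 88.0 and 90.3 RPKM with DMSO, a change of 0.16. TFF1, a trefoil peptide, was at the floor of detection, with 4 and 0 reads with BPA and 5 and 0 reads with DMSO. In MYB, a proto-oncogene, 3.65 and 3.89 RPKM with BPA compared with 3.70 and 2.64 RPKM with DMSO, a change of 0.23. Estradiol was given at another dose, so its values stand beside these without comparison: 64.5 and 57.2 RPKM for GREB1, 133 and 126 RPKM for STC2, 113 and 163 RPKM for PGR and 231 and 216 RPKM for IGFBP4.

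The 2 BPA libraries could also be compared with each other over genes that the estradiol libraries pick out, since the estradiol and DMSO libraries that define those genes hold neither BPA library. Of the 291 genes higher with estradiol than with DMSO in T-47D cells (2.1% called, and 3.22% in both directions), 218 (74.9%) were higher in BPA library 2 than in BPA library 1, with a median difference of 0.16. Of the 154 genes lower with estradiol (1.11% called), 38 (24.7%) were higher in BPA library 2, with a median of -0.09. Over all tested genes the share was 53.1% and the median 0.01. The 2 DMSO libraries also parted on these genes: DMSO library 2 was higher than DMSO library 1 in 112 of the 291, with a median difference of -0.05, in 107 of the 154, with a median of 0.10, and in 7270 of all 13827. These are differences between 2 libraries of 1 group, and carry no test.

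The 20 estrogen-repressed genes were all tested, and 8 of them (IL1R1, EFNB2, VTCN1, EPAS1, S1PR3, ENC1, PCDH7 and KCNC1) had likewise been taken from earlier estradiol results. None passed the threshold, both BPA libraries lay below both DMSO libraries in 4 (20%, against 10.2% of all genes) and above in 0, and the median change was -0.06. The estradiol results set those 8 genes against the same DMSO libraries, which favours BPA below DMSO. The 20% is therefore a description. ERBB2, the HER2 receptor kinase, had 152 and 183 RPKM with BPA and 154 and 191 RPKM with DMSO. EFNB2, an ephrin ligand, had 7.80 and 7.52 RPKM with BPA and 8.13 and 8.62 RPKM with DMSO, and PCDH7, a protocadherin, 2.42 and 2.37 RPKM with BPA and 3.29 and 2.73 RPKM with DMSO. The groups of EFNB2 and PCDH7, both among those 8, did not overlap, with BPA the lower one. TGFB3, a growth-inhibitory cytokine, had 73.1 and 81.4 RPKM with BPA and 78.4 and 83.7 RPKM with DMSO, which overlap.

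Of 17 receptors that bind BPA or steroids, 11 were tested, none was called, and their changes ran from -0.06 to 0.33 with every interval inside 2-fold. ESR1, which encodes estrogen receptor alpha, had 29.8 and 39.0 RPKM with BPA and 28.1 and 34.7 RPKM with DMSO, a change of 0.12. GPER, a membrane receptor, had 1.30 and 1.70 RPKM with BPA and 1.37 and 1.61 RPKM with DMSO, and ESRRA 28.2 and 26.4 RPKM with BPA and 30.7 and 25.3 RPKM with DMSO. In these genes the groups overlapped. The other receptors linked to BPA were hardly present: ESR2, the second estrogen receptor, had 0.27 and 0.16 RPKM with BPA and 0.25 and 0.11 RPKM with DMSO, ESRRG 0.03 and 0.05 RPKM with BPA and 0.03 and 0.01 RPKM with DMSO, and NR1I2, the pregnane X receptor, 0.04 and 0 RPKM with BPA and 0 in both DMSO libraries. All 16 estrogen receptor cofactors were tested, none was called, and changes ran from -0.04 to 0.12. Among 20 enzymes that conjugate or release BPA and estrogens, 10 were tested, none was called and the median change was 0.00. Both BPA libraries lay above both DMSO libraries in 2 of the 10 (20%, against 10.5% of all genes) and below in 0. The sulfotransferase SULT1A1 had 14.3 and 16.3 RPKM with BPA and 13.9 and 12.1 RPKM with DMSO, and SULT1A2 8.19 and 9.20 RPKM with BPA and 7.64 and 7.81 RPKM with DMSO, though these copies are close in sequence and their reads may be shared.

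Targets of other sensors of foreign chemicals and steroids did not pass the threshold either. Of 10 targets of the aryl hydrocarbon receptor 8 were tested, with a median change of 0.06. Both BPA libraries lay above both DMSO libraries in 3 of the 8 (37.5%) and below in 0. The share above was 26.4% for the estrogen-induced genes and 10.5% for all genes. CYP1A1, its classic target, had 7.79 and 5.29 RPKM with BPA and 4.91 and 6.24 RPKM with DMSO, a change of 0.20 with overlapping groups, and AHRR, the receptor's repressor, had 1.63 and 1.65 RPKM with BPA and 1.41 and 1.26 RPKM with DMSO. Of 14 targets of NRF2, the regulator of antioxidant genes, 13 were tested with a median of 0.01. Both BPA libraries lay above both DMSO libraries in 3 of the 13 (23.1%) and below in 0. HMOX1, heme oxygenase, had 3.51 and 2.84 RPKM with BPA and 4.04 and 3.06 RPKM with DMSO. Of 9 pregnane X receptor targets 1 was tested. Of 14 targets of the glucocorticoid and progesterone receptors 13 were tested with a median of 0.00. Both BPA libraries lay above both DMSO libraries in 2 of the 13 (15.4%) and below in 3 (23.1%, against 10.2% of all genes). Of 23 immediate early genes 20 were tested with a median of 0.05, and 2 had an unadjusted p under 0.05, EGR1 and MYC. EGR1 had 0.35 and 1.46 RPKM with BPA and 0.24 and 0.43 RPKM with DMSO, high in the same BPA library as the markers of other cell types, and FOSB 0.34 and 1.23 RPKM with BPA and 0.22 and 0.25 RPKM with DMSO.

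Genes of growth and division were set against each other next. All 25 ribosome biogenesis genes, many of them MYC targets, were tested and none was called. Both BPA libraries lay above both DMSO libraries in 14 of them (56%, against 10.5% of all genes) and below in 0, 21 changes were above 0, and the median was 0.09. That median was 0.09 in BPA library 1 and 0.08 in BPA library 2 against the DMSO mean, 0.08 without scaling and 0.10 with upper quartile scaling. DMSO library 2 lay below DMSO library 1 by a median of 0.13 over these genes, more than the difference between the groups. Against the DMSO library of the same number, the median was 0.01 for BPA library 1 and 0.12 for BPA library 2. It was 0.15 without DMSO library 1 and 0.05 without DMSO library 2. RRS1, an assembly factor of the large ribosomal subunit, had 9.50 and 9.63 RPKM with BPA and 7.77 and 6.72 RPKM with DMSO, a change of 0.38 (SE 0.21). POLR1A, the large subunit of RNA polymerase I, had 10.9 and 11.6 RPKM with BPA and 8.98 and 10.7 RPKM with DMSO, BOP1 18.5 and 18.9 RPKM with BPA and 16.8 and 16.6 RPKM with DMSO, and RRP12 19.3 and 22.1 RPKM with BPA and 18.8 and 17.1 RPKM with DMSO. Ribosomal proteins, 24 genes, had a median of -0.02. The 24 G1/S and replication genes had a median of -0.01 and the 24 G2/M genes -0.02, with none called. MCM10 had 4.98 and 4.77 RPKM with BPA and 4.77 and 3.79 RPKM with DMSO, PCNA 79.0 and 72.8 RPKM with BPA and 96.2 and 72.4 RPKM with DMSO, and cyclin B1 (CCNB1) 57.3 and 55.3 RPKM with BPA and 65.1 and 56.1 RPKM with DMSO. Cyclins, CDKs and their inhibitors (14 tested) had a median of 0.03 and apoptosis regulators (18 of 20 tested) of 0.00, where BIK had the largest change.

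In the stress and metabolic lists the 2 libraries of a group often lay apart. Of 16 glycolysis and hypoxia genes 15 were tested and none was called, with a median change of -0.17. BPA library 2 lay below BPA library 1 in all 15, by a median of 0.52, and DMSO library 2 lay below DMSO library 1 in all 15, by a median of 0.63. Genistein library 2 lay above genistein library 1 in 0 of the 15, and estradiol library 2 above estradiol library 1 in 11. VEGFA, the vascular growth factor, had 11.2 and 4.21 RPKM with BPA and 18.9 and 5.76 RPKM with DMSO, NDRG1 25.3 and 13.4 RPKM with BPA and 36.3 and 17.8 RPKM with DMSO, and BNIP3 32.5 and 17.6 RPKM with BPA and 41.6 and 21.3 RPKM with DMSO. In each of the 3 genes the groups overlapped and the 2 libraries of a group differed more than the group means. Between libraries of the same number BPA was the lower one in these 3 genes, and in 10 of the 15 it was lower in both such pairs (3127 of 13827 over all genes) and in 0 higher in both. The list median was -0.25 for BPA library 1 minus DMSO library 1 and -0.07 for BPA library 2 minus DMSO library 2. Leaving out 1 library sets unlike numbers against each other, and the median was then 0.06 without BPA library 2, 0.16 without DMSO library 1 and -0.53 without DMSO library 2. Sterol and fatty acid synthesis (20 tested, median 0.04) gave 0.17 for BPA library 1 and -0.11 for BPA library 2 against the DMSO mean, and 0.02 and 0.04 for BPA libraries 1 and 2 against the DMSO library of the same number. Heat shock genes (13 tested, median -0.02) had HSPA1A at 145 and 229 RPKM with BPA and 151 and 250 RPKM with DMSO, and its near-identical copy HSPA1B at 142 and 223 RPKM with BPA and 148 and 244 RPKM with DMSO. The 19 unfolded protein and amino acid stress genes had a median of -0.02. Of 16 interferon-induced genes 14 were tested with a median of -0.03, and IFIT1 had 0.67 and 0.81 RPKM with BPA and 1.13 and 0.84 RPKM with DMSO. No member of these lists passed the threshold.

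**Figure D4:**
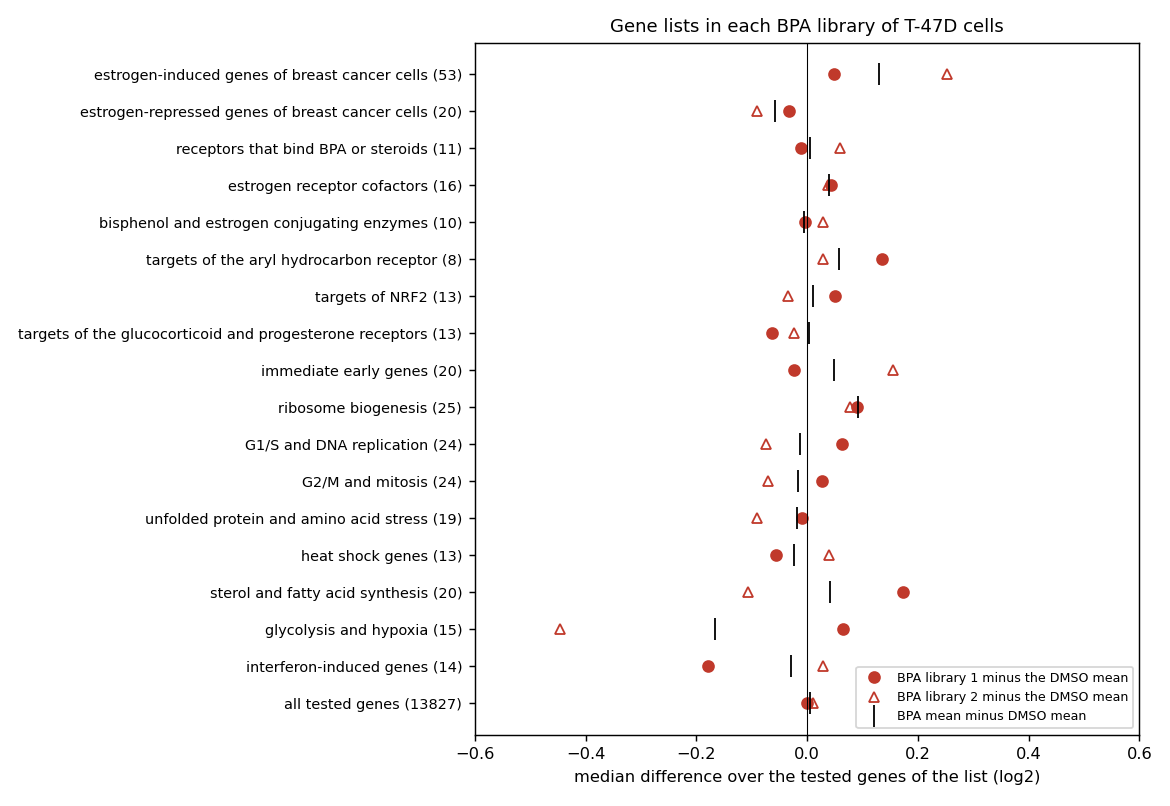
Median log2 difference over the tested genes of each list (number in parentheses) in T-47D cells: BPA library 1 minus the DMSO mean (filled circles), BPA library 2 minus the DMSO mean (open triangles) and BPA mean minus DMSO mean (bars). The ribosome biogenesis marks coincide (0.09 and 0.08), those of estrogen-induced genes lie apart (0.05 and 0.25), and those of glycolysis and hypoxia fall on either side of 0 (0.06 and -0.45).

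Genistein, a soy isoflavone that binds estrogen receptors, was given at the same 100 nM for the same 8 h, so the compounds could be compared at matched dose and time. They were the 1 pair compared. BPA is a bisphenol and genistein an isoflavone, and both carry phenol groups. limma called 56 of the 13827 genes (0.405%), 53 lower with BPA (0.383%) and 3 higher (0.0217%). CXCL12 had 5.13 and 9.20 RPKM with BPA and 37.4 and 40.8 RPKM with genistein, a difference of -2.42 (SE 0.22, limma adjusted p = 0.000216). NKAIN1, a partner of the sodium pump, had 0.52 and 0.66 RPKM with BPA and 2.92 and 3.12 RPKM with genistein, a difference of -1.69 (SE 0.16, limma adjusted p = 0.00025). The difference was -1.70 for OLFM1, -1.55 for SUSD3, -1.40 for KCNK5, -1.37 for STC2, -1.36 for GREB1 and -1.33 for KRT13. It was -1.17 for KCNH1 and -1.16 for MYC. In all 10 genes both BPA libraries lay below both genistein libraries, as in 15.6% of all genes. The 3 higher genes, GAGE12F, GAGE7 and GAGE12I, are near-identical cancer-testis antigens whose reads cannot be told apart, at 1.72 to 2.26 RPKM with BPA and 0.43 to 1.02 RPKM with genistein. All 53 lower genes (100%) were among the 291 that were higher with estradiol than with DMSO, 18.2% of these. The 2 comparisons share no library but come from 1 fit. Over the 53 tested estrogen-induced genes 17 were called lower with BPA than with genistein, and the median difference was -0.58 (0.01 over all genes). That list includes KRT13, SUSD3, KCNK5 and OLFM1, which came from earlier estradiol results on these libraries. Without them, 13 of 49 were called lower, and the median difference was -0.51. In 13580 genes (98.2%) the interval of the difference lay inside 2-fold. The count rested on few libraries: 5 genes were called without BPA library 1 and 10 without genistein library 2.

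Promoters of 3 of the 8 genes furthest below genistein (mean of at least 1 RPKM) are printed because each holds GGTCA, an arm of the estrogen response element, or TGACC on the other strand, shown in capitals. They are RefSeq windows of 250 bases before and 50 after the transcript start on GRCh38.p14, read 5′ to 3′ on the gene's strand, whereas the reads were aligned to hg19. CXCL12 lies at chr10:44385048-44385347, minus strand, with the match 208 bases before the start. STC2 lies at chr5:173328365-173328664, minus strand, with the match 23 bases after it, and KCNK5 at chr6:39229426-39229725, minus strand, with the match 188 bases before it.
CXCL12: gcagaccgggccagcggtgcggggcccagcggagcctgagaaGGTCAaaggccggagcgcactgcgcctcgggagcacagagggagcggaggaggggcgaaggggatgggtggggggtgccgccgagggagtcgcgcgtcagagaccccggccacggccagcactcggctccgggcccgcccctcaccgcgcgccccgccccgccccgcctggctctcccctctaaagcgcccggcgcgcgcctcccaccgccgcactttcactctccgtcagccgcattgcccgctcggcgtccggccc
STC2: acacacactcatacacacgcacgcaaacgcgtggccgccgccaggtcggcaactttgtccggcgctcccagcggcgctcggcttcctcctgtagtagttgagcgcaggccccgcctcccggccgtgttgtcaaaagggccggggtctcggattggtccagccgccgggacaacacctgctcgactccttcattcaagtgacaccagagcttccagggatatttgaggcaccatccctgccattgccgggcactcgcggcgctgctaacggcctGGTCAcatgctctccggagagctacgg
KCNK5: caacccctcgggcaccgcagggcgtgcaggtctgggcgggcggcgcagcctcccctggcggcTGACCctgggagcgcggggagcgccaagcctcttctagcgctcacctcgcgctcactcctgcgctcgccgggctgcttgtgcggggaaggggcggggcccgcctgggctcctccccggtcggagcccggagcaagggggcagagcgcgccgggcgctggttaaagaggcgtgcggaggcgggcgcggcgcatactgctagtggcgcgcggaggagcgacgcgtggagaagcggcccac
Of the 8 genes 6 were matched to 8 promoters, of which 3 (37.5%) held the 5 letters on either strand, as did 37.4% of all 35116 promoters. Among the 12 largest positive differences between BPA and DMSO, 7 of 13 promoters of 8 matched genes held them (53.8%), and among the 12 largest negative ones 2 of 8 promoters of 6 matched genes (25%). The palindrome of GGTCA, any 3 bases and TGACC, which contains these letters, was in 20 of all promoters and in 0 of either set. A match is a description of the letters in this window.

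In ECC-1 cells the same dose and time of BPA gave 27 called genes (0.195%), all higher, and the same genes were then read in T-47D cells. In T-47D cells their changes ran from -0.34 to 0.23 with a median of 0.01, and 26 of the 27 had an interval inside 2-fold (99.2% of all genes did). Both BPA libraries lay above both DMSO libraries in 5 of the 27 (18.5%, against 10.5% of all genes) and below in 4 (14.8%, against 10.2%). The difference between the lines was tested itself, and limma called 6 genes (0.0434%), all with the smaller response in T-47D cells. DEPDC6, an inhibitor of mTOR, had 8.33 and 8.19 RPKM with BPA and 8.88 and 8.12 RPKM with DMSO in T-47D cells, against 17.6 and 15.8 RPKM with BPA and 3.80 and 3.13 RPKM with DMSO in ECC-1 cells. TGFA, a ligand of the EGF receptor, had 2.88 and 3.18 RPKM with BPA and 3.03 and 2.99 RPKM with DMSO in T-47D cells, against 104 and 89.2 RPKM with BPA and 35.1 and 34.4 RPKM with DMSO in ECC-1 cells. DHRS3, a retinaldehyde reductase, had 4.27 and 3.68 RPKM with BPA and 5.72 and 4.62 RPKM with DMSO in T-47D cells, a change of -0.34 that was not called, against 8.28 and 11.7 RPKM with BPA and 0.75 and 1.42 RPKM with DMSO in ECC-1 cells. The other 3 were the metalloproteinase MMP17, the actin bundler ESPN and its pseudogene ESPNP, whose reads may be shared with ESPN. All 6 were present in T-47D cells at 2.88 RPKM or more. The count was 1 without ECC-1 BPA library 1 and 2 without T-47D DMSO library 2 or ECC-1 DMSO library 1. The ECC-1 genes were chosen in the same fit, so their ECC-1 values are a description.

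**Figure D5:**
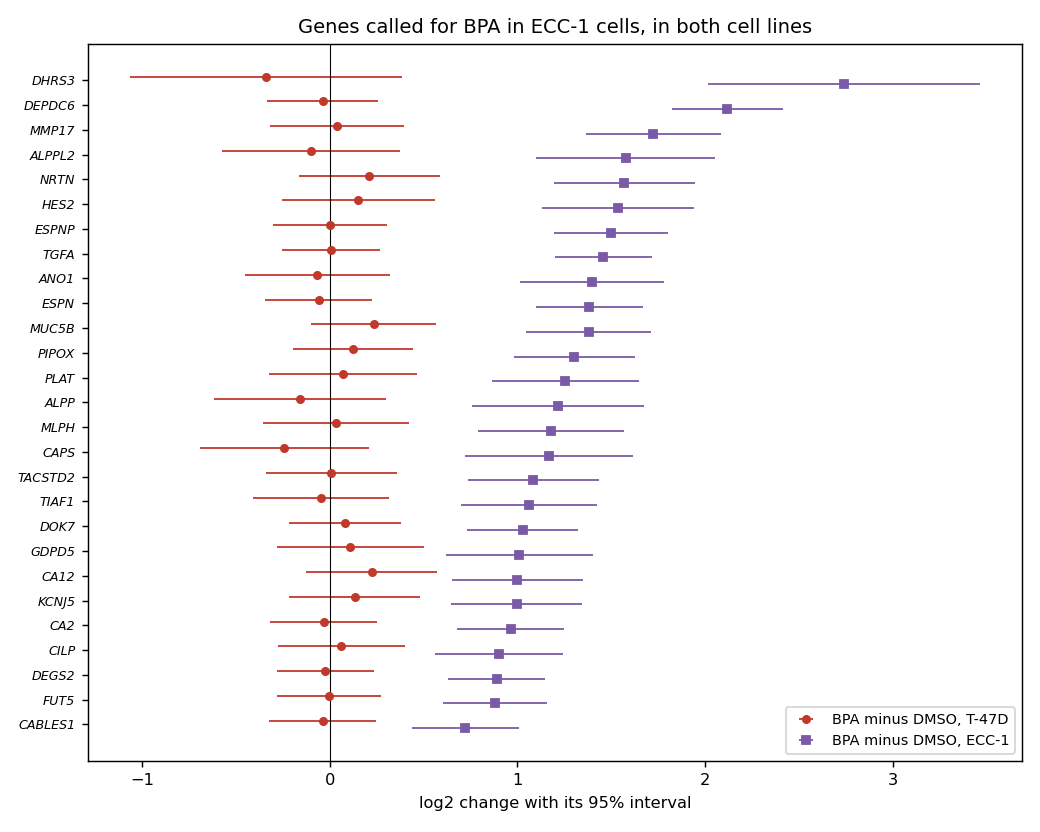
Log2 change with its 95% interval, BPA minus DMSO, in T-47D cells (red circles) and ECC-1 cells (purple squares), for the 27 genes called in ECC-1 cells. The T-47D values lie between -0.34 and 0.23 around the line at 0, and the ECC-1 values, which chose the genes, lie above it.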

How the data were processed

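RNA sequencing of polyadenylated RNA was analysed in 16 libraries, 2 for each of 8 groups. The authors deposited RPKM values for 32062 RefSeq transcripts in each library. Reads were aligned with Bowtie to hg19, per the submitters' processing notes, without versions; how reads were counted is not stated. The libraries keep no strand, per the labels' protocols, so antisense and overlapping genes cannot be told apart.

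Low RPKM values come in steps of 1 read, and these steps gave the depth (17.4 to 29.4 M reads). Of values below 10 reads, 62.3 to 64.5% were whole to 0.1 read (20% by chance), too few for a count test. Per symbol the transcript with the highest mean was kept (5983 of 21453 symbols had several). Libraries were scaled by the median ratio over 7547 genes. Genes with at least 1 deposited RPKM in at least 2 libraries were tested on log2(scaled RPKM + 0.5) in limma 3.58.1 (R 4.3.3) with 8 group means over 16 libraries, a mean-variance trend and Benjamini-Hochberg adjustment (threshold 0.05; 8 residual and 6.9 prior degrees of freedom). All groups share 1 estimate of the spread. The script was tested on simulated data. With 2 against 2 libraries an exact two-sided permutation test cannot go below 0.333 and was not used.

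Named genes were, by rule, those called; the 12 largest differences each way with a mean of at least 1 RPKM, an unadjusted p under 0.05 and groups apart; a panel of 10 genes; members of 30 lists (up to 4 by size of change outside the estrogen and receptor lists); genes called with a library left out; and the 8 largest called differences in other comparisons. The members and lists were chosen with earlier results of these data known. The genes of other cell types in BPA library 2 and the adipocyte list were chosen after their values were seen. Alternatives changed the pseudocount (0.1 or 1), the filter, the scaling, the libraries in the fit, array weights, the mean-variance trend, the replicate block and the handling of several transcripts, and left out each library in turn. The results of 1 gene and 1 list are not reported here. Promoter letters are credited to RefSeq on GRCh38.p14.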

Additional observations from a re-analysis of the deposited data

Results flagged for a closer look

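The response to BPA, 8 h at 100 nM, differed between the lines by a test of the difference itself in 6 genes, all with the lower change in T-47D cells, taken minus that in ECC-1 cells (limma, 6 of 13827 genes at an adjusted p under 0.05). DHRS3 differed by -3.078 on the log2 scale (adjusted p = 0.028), DEPDC6 by -2.155 (adjusted p = 0.000208) and MMP17 by -1.685 (adjusted p = 0.0103). ESPNP differed by -1.496 (adjusted p = 0.00774), TGFA by -1.451 (adjusted p = 0.00335) and ESPN by -1.44 (adjusted p = 0.00737), and reads of ESPN and ESPNP may be shared. MMP17 had 7.30 and 7.94 RPKM with BPA and 7.40 and 7.39 RPKM with DMSO in T-47D cells, and 4.14 and 3.61 RPKM with BPA and 0.87 and 0.77 RPKM with DMSO in ECC-1 cells. ESPN had 12 and 13.8 RPKM with BPA and 12.7 and 14.3 RPKM with DMSO in T-47D cells, and 68.9 and 72.3 RPKM with BPA and 26.7 and 26.8 RPKM with DMSO in ECC-1 cells. With 2 libraries a group, single outlying libraries could not be tested.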

How the results depend on the processing

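BPA against DMSO in T-47D cells gave 0 called genes under every alternative listed at the outset but 1: without BPA library 1 it gave 3, so that leaving out 1 library gave 0 to 3. Without all estradiol libraries and BPA library 1, chosen after seeing the data, it gave 12. BPA against genistein (56) gave 27 at a mean of at least 5 RPKM, 7 with the 8 T-47D libraries alone, 102 without both first estradiol libraries, 96 with array weights and 5 to 62 with 1 library left out. The difference between lines (6) gave 11 at a pseudocount of 1, 12 with the compared groups alone, 18 without both first estradiol libraries, 23 with array weights and 1 to 8 with 1 library left out. The cause of these shifts was not tested. Of the 41 genes whose change is followed, 4 changed sign with a library left out: CCND1 (-0.091 to 0.26), IGFBP4 (-0.046 to 0.36), ESR1 (-0.069 to 0.31) and CYP1A1 (-0.059 to 0.46).

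The labels do not say that equal replicate numbers mark a shared culture or day, and the libraries were not treated as pairs. The correlation of like-numbered deviations in T-47D cells was 0.35 for BPA and DMSO, 0.208 for BPA and genistein, 0.408 for genistein and DMSO and 0.24 for genistein and estradiol, but -0.224 for BPA and estradiol and 0.077 for estradiol and DMSO. With the replicate number as a block, BPA against DMSO gave 0 calls (158 at an unadjusted p under 0.05), BPA against genistein 70 and the difference between lines 6. With the block and without all estradiol libraries, chosen after seeing the data, BPA against DMSO gave 0 calls (426 at an unadjusted p under 0.05).

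Depth limits low genes: 3 reads of a 2 kb transcript come to 0.0584 to 0.0862 RPKM in these 4 libraries. With 2 libraries a group and the spread pooled over all 16 libraries, a change under about 0.33 log2 units could not be told from none in a typical gene. This holds even before adjustment. The median reach was the same for estradiol against DMSO in T-47D cells, so it is not a measure of the BPA and DMSO libraries alone. The adjusted threshold asked for more: CXCL12, with a change of 1.09, did not pass it.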

Other observations

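Other gene lists held no called gene for BPA against DMSO in T-47D cells. EGF receptor ligands and receptors (10 of 12 tested) had a median log2 change of -0.02, and replication-dependent histones (13 of 14 tested), whose main transcripts lack a poly(A) tail, of -0.09. Mullerian and endometrial markers summed to 9.67 to 10.7 RPKM with BPA and 9.64 to 11.8 RPKM with DMSO.

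Further transcripts stood out in BPA library 2. ADH1B, an alcohol dehydrogenase of fat and liver, had 1.23 RPKM there and at most 0.14 RPKM in the other 7 T-47D libraries. LPL, lipoprotein lipase, had 0.75 RPKM there and at most 0.11 RPKM in the others, and SAA1, an acute phase protein, 1.61 RPKM there and at most 0.30 RPKM in the others. The basal keratin KRT14 had 1.07 RPKM there and at most 0.43 RPKM in the others. These genes were chosen after their values were seen.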
